A study of Vitis vinifera with 12 samples.

Results

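NAC33 is a grapevine transcription factor of the NAC family. The sites described here had a called NAC33 event on leaf DNA in the library labelled 1000 and none in the leaf libraries labelled 500. They were the events of the NAC33 list labelled 1000 that lay on a numbered chromosome and had no event of the NAC33 leaf list labelled 500 within 100 bp. There were 3810 such gained events, which is 62.9% (exact 95% interval 61.6% to 64.1%) of the 6061 events of that list on the 19 numbered chromosomes, and they stand among 44889 events in all 7 lists of the series. The other 2251 events of the list had an event labelled 500 within 100 bp and are called recurring. A further 237 events of the list lay on the sequence named chr00 and were left out. The gained events were chosen by the presence of an event in one NAC33 leaf list and its absence from the other, so their number, their strength and their distance from the list labelled 500 are descriptions. Events of the NAC33 leaf list labelled 500 with no event labelled 1000 within 100 bp, 3437 on the numbered chromosomes, are called lost.

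NAC proteins are plant-specific transcription factors with a conserved DNA-binding domain at the N-terminus, and they bind short sites built around the core CACG. Members of the family act in leaf ageing, organ formation, stress responses and fruit ripening. NAC33 has been described in grapevine as a promoter of leaf de-greening, and the NAC factor CARPO, also named NAC60, is tied by the title of the series to organ maturation and ripening. The DNA affinity purification assay (DAP-seq) mixes a tagged factor made outside the cell with fragments of genomic DNA freed of chromatin. Partner proteins of the plant cell are absent from the mix.

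All 3 factors were HALO-tagged proteins from a rabbit reticulocyte lysate, a cell-free translation mix, and all DNA came from the cultivar Syrah. The lists searched for partners were CARPO labelled 1000 on leaf DNA, CARPO labelled 500 on leaf DNA, NAC03 labelled 500 on leaf DNA, NAC33 labelled 500 on berry DNA and CARPO labelled 500 on berry DNA. The unit of 500 and 1000 is not given in the sources used here. The NAC33 and CARPO leaf lists labelled 500 were each called from 2 libraries together and every other list from 1 library, so the title number and the number of libraries changed together and cannot be told apart. The protocol texts speak of leaf material for the berry samples as well, so berry is given as the source label has it, and the 3 samples with the HALO-GST control protein have no event list among the files and were not analysed here. Each condition had 1 list, so no spread between replicates exists and no difference below carries a test. Intervals are exact Clopper-Pearson 95% intervals, which treat events as independent and cover counting error only. Depth is unknown, and an event missing from a list may be one below its threshold. The genome build is not stated and no genome of it was used, so no gene, motif or sequence is given for any site, and positions are as deposited.

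Most gained events were weak within their own list, but some were among its strongest. Event strength, the value the event caller gave each event, ran from 10 to 2261.7 among gained events, with a median of 19 and quartiles of 15.8 and 24. Among recurring events the median was 27.9, with quartiles of 21 and 37.95. The −log10 q-value was below 3 for 2456 gained events (64.5%) and at least 4 for 621 (16.3%), whereas 1110 recurring events (49.3%) reached 4. When the list on the numbered chromosomes was divided by strength into 5 classes of equal size, gained events made up 27.2% of class 1, the strongest, then 52.1%, 67.1%, 79.5% and 88.4% of class 5. Of the strongest 100 events, 36 were gained and 64 recurring, and 31 gained and 43 recurring events had a strength of at least 100. The 2 strongest events of the list, with strengths of 11632 and 2338, were recurring. At a strength of at least 200, a limit chosen after the values were seen, there were 21 gained and 11 recurring events. Some of these gained events formed close pairs: 1 bp apart on chromosome 17, 50 bp on chromosome 8, 106 bp on chromosome 2 and 151 bp on chromosome 12. The 21 events thus stand for fewer places, and the spacing of the 11 recurring events is not given here. The lost events showed the same gradient in their own list, from 24.6% of its strongest class to 87.0% of its weakest.

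**Figure D1:**
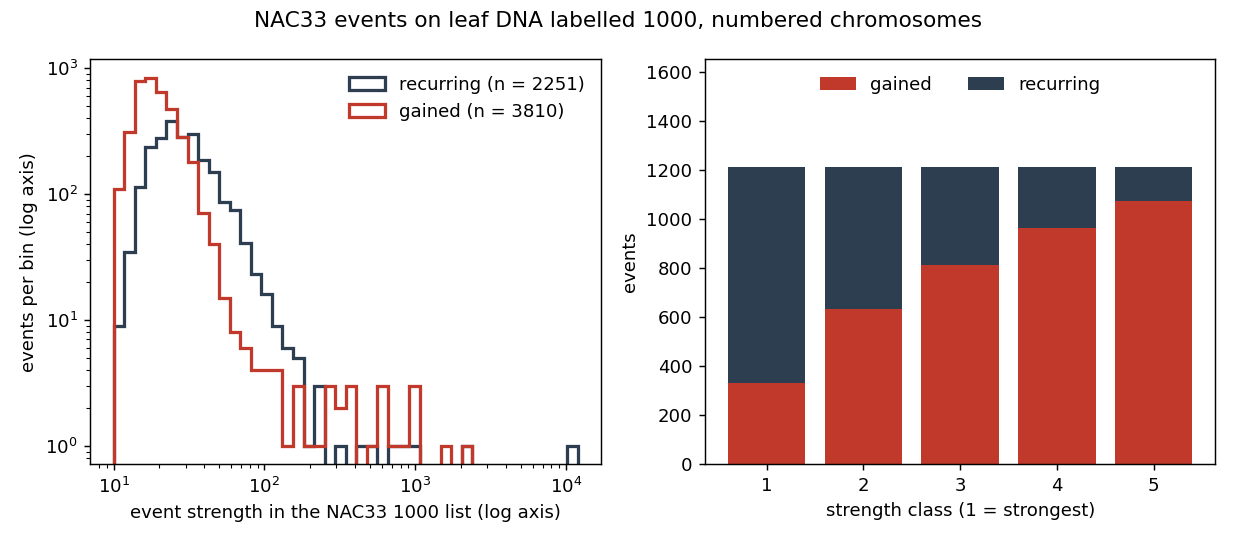
Left, number of NAC33 events labelled 1000 per bin of event strength (both axes logarithmic) for the 3810 gained and 2251 recurring events; right, number of gained and recurring events in each strength class of the list, class 1 being the strongest. Gained events fill 27.2% of class 1 and 88.4% of class 5. At a strength of at least 200, a limit chosen after the values were seen, there are 21 gained events, some of them in close pairs, and 11 recurring events.

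Most gained events lay far from any event of the list labelled 500. The median distance to the nearest one was 23109.5 bp, 3154 (82.8%) were more than 5000 bp away and 2095 (55.0%) more than 20000 bp away. Only 98 (2.57%) lay 101 to 200 bp away, where the deposited 201 bp intervals of both lists still overlap. Of the 164 gained events within 500 bp of an event labelled 500, 53 lay beside one that was itself matched by a recurring event. Among recurring events the median distance was 4 bp, and 1115 (49.5%) were within 3 bp, while 236 were more than 50 bp away. At the edge of the rule, 20 recurring events lay 91 to 100 bp from an event labelled 500 and 28 gained events lay 101 to 110 bp from one. The strengths of these events ran from 12.8 to 40, with a median of 23.55, for the recurring and from 14 to 54, with a median of 22.5, for the gained ones. Of the 3 gained events nearest to the threshold, one was on chromosome 2 at 14544142, 101 bp away, with a strength of 23. Next came an event on chromosome 4 at 20049554 with a strength of 19.2, followed by one on chromosome 2 at 6398785 with a strength of 19, both also 101 bp away. Just inside, events lay on chromosome 1 at 17640552 (100 bp, strength 25.1), on chromosome 11 at 13057061 (100 bp, strength 21) and on chromosome 18 at 29284957 (99 bp, strength 22).

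The gained events were found on all 19 numbered chromosomes, in shares of the list that ran from 58.3% on chromosome 13 (95% interval 53.1% to 63.3%) to 67.9% on chromosome 4 (62.3% to 73.1%). Per Mb of chromosome, measured up to its highest event end, their number ran from 5.57 on chromosome 9 to 11.8 on chromosome 8, and recurring events were also densest on chromosome 8 (6.97) and sparsest on chromosome 9 (3.40). The share with a partner in any of the 5 other lists ran from 11.7% on chromosome 9 to 29.1% on chromosome 18. Gained events were mostly single: 142 (3.73%) had another event of their list within 500 bp, against 176 recurring events (7.82%). Merging those within 500 bp of each other left 3765 places, with at most 3 gained events in one.

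The main question for these sites was whether the other lists, which the rule did not use, held an event at the same place. Of the 3810 gained events, 848 (22.3%, 95% interval 20.9% to 23.6%) had an event within 100 bp in at least 1 of the 5 other lists. The same share over all 6061 NAC33 events labelled 1000 was 31.1%, so gained events lay below their own list. Recurring events had a share of 46.1% (44.0% to 48.2%) and lost events one of 15.3% (14.1% to 16.6%). The other 2962 gained events (77.7%) had no partner in any list, with a median distance of 7661 bp to the nearest event of the 5 lists, and 326 of them (11.0%) had one within 1000 bp.

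By list, the CARPO leaf lists held the most partners. CARPO labelled 500 on leaf DNA had an event within 100 bp of 667 gained events (17.5%, 95% interval 16.3% to 18.8%), where the share over the whole NAC33 list was 24.4%. CARPO labelled 1000, the only other list with that title number, had one at 568 (14.9%, 13.8% to 16.1%; whole list 19.2%). NAC03 had one at 337 (8.85%, 7.96% to 9.79%; whole list 15.9%). CARPO on berry DNA had one at 305 (8.01%, 7.16% to 8.91%; whole list 12.1%), and NAC33 on berry DNA, the same factor on the other DNA, at 97 (2.55%, 2.07% to 3.10%; whole list 6.29%). The order of these shares followed the lengths of the partner lists, from 14344 events of CARPO labelled 500 on leaf DNA down to 691 of NAC33 on berry DNA on the numbered chromosomes. The intervals of NAC03 and of CARPO on berry DNA, lists of 4080 and 3619 events, overlapped. With each partner list cut to the length of the shortest, the 5 shares lay between 2.39% and 2.60%, so the order did not hold at equal length.

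Recurring events had a higher share in every list: 36.1% with CARPO labelled 500 on leaf DNA, 26.5% with CARPO labelled 1000, 27.8% with NAC03, 19.0% with CARPO on berry DNA and 12.6% with NAC33 on berry DNA. Gained events can also be set beside lost events, which are the mirror image in the list labelled 500. CARPO labelled 1000 had a partner at 14.9% of gained and 5.79% of lost events (95% interval 5.03% to 6.62%). CARPO on berry DNA, labelled 500, had one at 8.01% of gained and 3.58% of lost events (2.98% to 4.26%), and CARPO labelled 500 on leaf DNA at 17.5% and 12.0% (10.9% to 13.2%). With NAC03 the intervals overlapped, at 8.85% of gained and 8.26% of lost events (7.36% to 9.23%). With NAC33 on berry DNA the values were 2.55% and 1.66% (1.26% to 2.14%), with intervals that overlapped narrowly. The same partner lists were searched for both sets, but gained events come from 1 library and lost events from 2 called together. Gained and lost events were not compared at like strength. No share over the whole NAC33 leaf list labelled 500 stands beside the lost events.

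**Figure D2:**
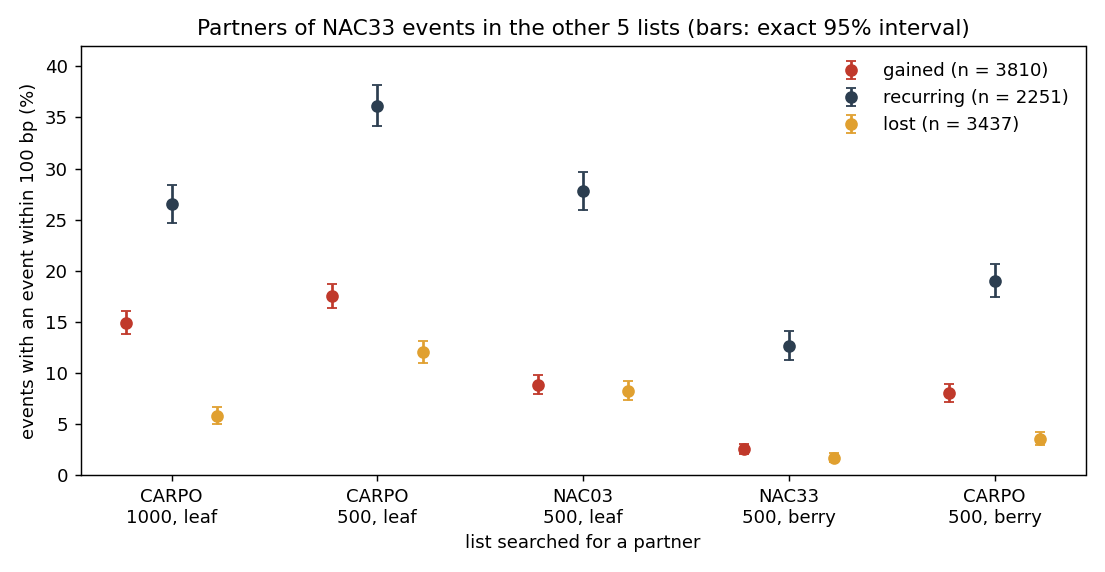
Share of gained, recurring and lost NAC33 events with an event within 100 bp in each of the other 5 lists, with exact 95% intervals. Gained events lie below recurring events in every list, and above lost events in the CARPO lists, with 14.9% against 5.79% for CARPO labelled 1000.

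Gained and recurring events differ in strength, so their shares were also compared inside the 5 strength classes of the NAC33 list. Among gained events the share with a CARPO partner labelled 1000 was 26.1% in class 1 and 10.4% in class 5, against 36.4% and 12.1% among recurring events. With NAC03 the shares were 21.2% and 5.04% for gained events and 37.7% and 15.0% for recurring events. Weighted to the strength classes of the gained events, the share of recurring events was 18.7% with CARPO labelled 1000, which is 3.75 percentage points above the gained events, where the unweighted difference was 11.6. With CARPO labelled 500 on leaf DNA the weighted difference was 9.85 percentage points (unweighted 18.6), and with NAC03 11.5 (unweighted 18.9). It was 3.31 with NAC33 on berry DNA and 3.83 with CARPO on berry DNA. Recurring events had the higher share in all 5 classes for 4 of the lists and in 4 classes for CARPO on berry DNA, where the exception was class 4, at 6.85% for gained and 6.45% for recurring events. Strength class therefore moved with part of each difference, and a remainder was left in each list. The weighted differences carry no interval. Class 1 spans strengths from 31 to 11632, so strength can still differ inside a class. For CARPO labelled 1000 the intervals of gained and recurring events overlapped in every class but class 1. The intervals also overlapped in classes 3 to 5 for both berry lists and in classes 4 and 5 for CARPO labelled 500 on leaf DNA. For NAC03 they overlapped in no class.

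**Figure D3:**
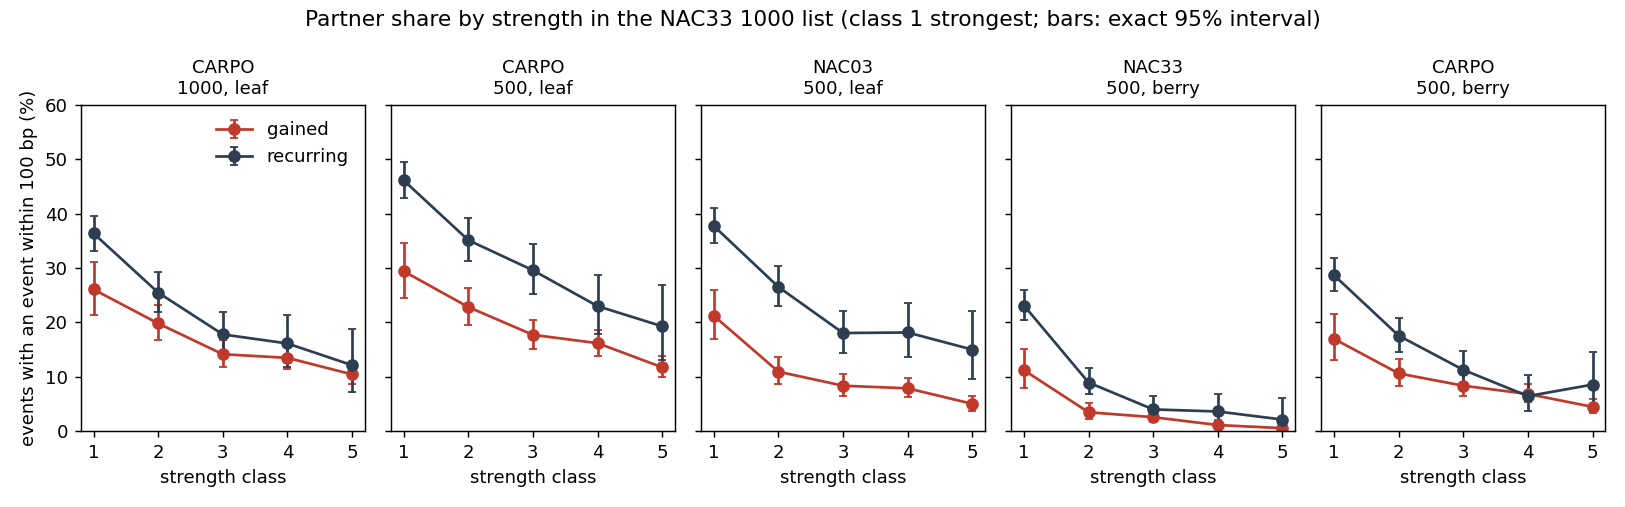
Share of gained and recurring NAC33 events with a partner in each of 5 lists, by strength class in the NAC33 list labelled 1000 (class 1 strongest), with exact 95% intervals. In class 1 the shares of gained and recurring events are 26.1% and 36.4% for CARPO labelled 1000 and 21.2% and 37.7% for NAC03, and in class 5 they are 10.4% and 12.1% for the former and 5.04% and 15.0% for the latter.

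The lists in which a gained event had partners were not independent of each other. Of the 848 gained events with a partner, 755 (89.0%, 95% interval 86.7% to 91.1%) had one in at least 1 CARPO list. Among recurring events with a partner this share was 81.5% (79.0% to 83.8%). Partners in both CARPO leaf lists were found for 492 gained events, in the list labelled 500 alone of these for 175, and in the list labelled 1000 alone for 76. So 86.6% (83.5% to 89.3%) of the gained events with a CARPO partner labelled 1000 also had one labelled 500, and for recurring events the share was 95.5% (93.5% to 97.0%). Of the 337 gained events with a NAC03 partner, 308 (91.4%, 87.9% to 94.2%) also had a CARPO partner. Over all 3810 gained events, 755 had a CARPO partner. Among recurring events with a NAC03 partner, 89.6% (86.9% to 91.9%) also had a CARPO partner. Of the 305 gained events with a CARPO partner on berry DNA, 270 (88.5%, 84.4% to 91.9%) had one in both CARPO leaf lists. The share over all gained events was 12.9%. For recurring events with a CARPO partner on berry DNA it was 93.0% (90.1% to 95.2%).

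By number of lists, 271 gained events (7.11%) had a partner in 1 of the 5 lists, 218 (5.72%) in 2, 180 (4.72%) in 3, 168 (4.41%) in 4 and 11 (0.29%) in 5. Among recurring events the shares were 14.1%, 8.22%, 7.55%, 12.3% and 3.95% in that order. The most frequent combination was that of all 4 lists of CARPO and NAC03 without NAC33 on berry DNA, at 164 gained events (4.30%). It was also the most frequent among recurring events with a partner, at 259 (11.5%). Among gained events, both CARPO leaf lists and no other followed with 144 (3.78%; recurring 3.33%). CARPO labelled 500 on leaf DNA alone had 112 (2.94%; recurring 5.42%), and the 3 CARPO lists together 93 (2.44%; recurring 2.04%). Of the 97 gained events with a NAC33 partner on berry DNA, 64 (66.0%, 95% interval 55.7% to 75.3%) had no partner in a CARPO or NAC03 list, where the share over all gained events was 79.4%. For recurring events the share was 127 of 284 (44.7%, 38.8% to 50.7%; all recurring events 59.5%) and for lost events 38 of 57 (66.7%, 52.9% to 78.6%; all lost events 85.8%). The 58 gained events (1.52%) whose only partner was CARPO labelled 1000 are sites that appeared in both lists labelled 1000 and in no list labelled 500. Among recurring events, 13 (0.58%) had CARPO labelled 1000 as their only partner in the 5 lists. Of the 58 gained events, 23 (39.7%) had the CARPO event at the very same base and 9 were more than 50 bp from it. Over all gained events with a CARPO partner labelled 1000, 23.4% had it at the same base. The median strength of gained events rose only from 18.3 with no partner to 22 with partners in 4 lists, and was 28 for the 11 with partners in all 5.

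Seen from the partner lists, gained events lay at a larger share of the strong than of the weak events of the other factors, and recurring events did so too. Among the events of CARPO labelled 1000, 11.2% of its strongest class (95% interval 9.76% to 12.8%) and 4.33% of its weakest (3.43% to 5.39%) had a gained NAC33 event within 100 bp. For CARPO labelled 500 on leaf DNA these shares were 10.3% (9.23% to 11.5%) and 1.74% (1.30% to 2.29%), and for NAC03 13.5% (11.2% to 16.0%) and 4.29% (3.01% to 5.92%). For CARPO on berry DNA they were 13.0% (10.6% to 15.6%) and 4.70% (3.28% to 6.51%). Over all events of these lists the gained shares were 6.58%, 4.78%, 8.31% and 8.54% in that order. Recurring events also fell in the same lists, from 15.2% to 3.38%, 15.2% to 1.92%, 29.3% to 7.23% and 23.5% to 3.60%. In the NAC33 list on berry DNA the gained shares were 10.1% of the strongest class, 22.5% of the middle class and 10.9% of the weakest, whereas recurring events fell from 68.3% to 9.42%. The rule itself shaped these gained shares. A NAC33 leaf event labelled 500 lay within 100 bp of 74.1% of the strongest class and of 22.5% of the weakest. Few of those places could hold a gained event, so the lack of a fall cannot be read as a trait of the gained events. Of the 100 strongest events of CARPO labelled 1000, 19 had a gained and 35 a recurring NAC33 event. Of the 100 strongest of NAC03, the numbers were 15 and 24.

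**Figure D4:**
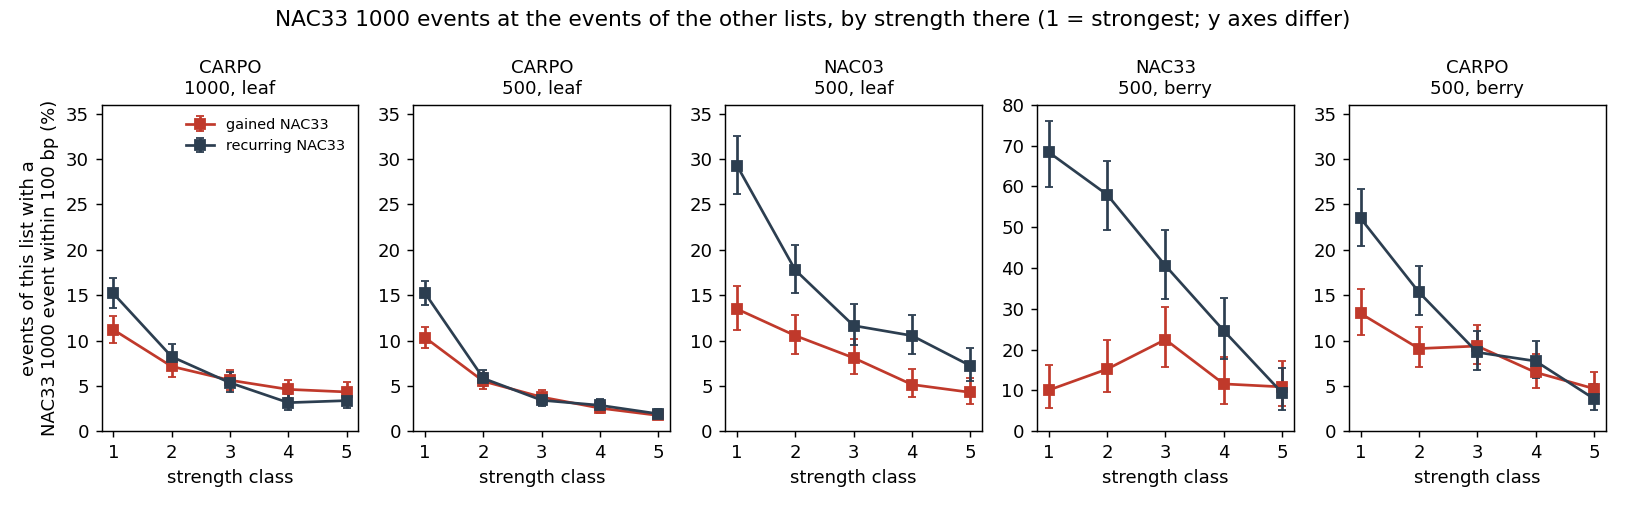
Share of the events of each of the other 5 lists that have a gained or a recurring NAC33 event labelled 1000 within 100 bp, by strength class in that list (class 1 strongest), with exact 95% intervals and y axes that differ. In CARPO labelled 1000, gained events fall from 11.2% to 4.33% and recurring events from 15.2% to 3.38%. The gained shares in NAC33 on berry DNA are shaped by the rule, as 74.1% of class 1 there had a NAC33 leaf event labelled 500 within 100 bp.

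Across gained events the strength of the NAC33 event and of its partner were loosely related. Spearman's rho across sites was 0.25 for CARPO labelled 1000 (568 sites), 0.27 for CARPO labelled 500 on leaf DNA (667 sites), 0.36 for NAC03 (337 sites), 0.29 for CARPO on berry DNA (305 sites) and 0.44 for NAC33 on berry DNA (97 sites). Pearson's r of the log2 strengths was higher, 0.43, 0.56, 0.80, 0.76 and 0.76 in that order. A few very strong sites can raise r, as gained strengths had an upper quartile of 24 and a maximum of 2261.7, and this was not tested. Among recurring events rho was 0.33, 0.36, 0.40, 0.35 and 0.53, and r was 0.43, 0.54, 0.63, 0.60 and 0.63, in the same order. Sites of one list share a library and are not replicates.

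Partners sat close to the gained events. The median distance was 12 bp for both CARPO leaf lists, 11 bp for NAC03, 13 bp for CARPO on berry DNA and 2 bp for NAC33 on berry DNA. The most frequent distance was 0 bp for CARPO labelled 1000, at 133 of 568 gained events (23.4%). It was 2 bp for CARPO labelled 500 on leaf DNA (153 of 667, 22.9%) and 1 bp for NAC03 (87 of 337, 25.8%), CARPO on berry DNA (61 of 305, 20.0%) and NAC33 on berry DNA (47 of 97, 48.5%). Recurring events had the same most frequent distance in each list. It held 27.8% of them for CARPO labelled 1000, 28.0% for CARPO labelled 500 on leaf DNA, 32.3% for NAC03, 25.9% for CARPO on berry DNA and 43.7% for NAC33 on berry DNA. Their median distances were 11, 9, 9, 10 and 4 bp in that order. These differences between gained and recurring events were not tested.

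**Figure D5:**
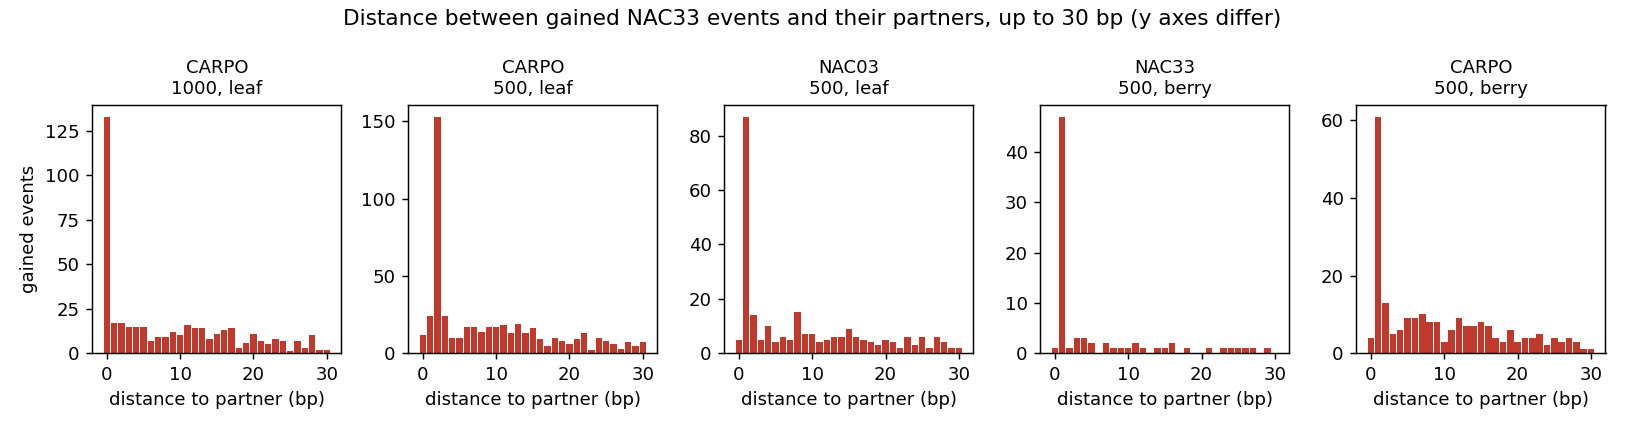
Number of gained NAC33 events at each distance, in bp, from their partner in each of the other 5 lists, shown up to 30 bp with y axes that differ. The peak is at 0 bp for CARPO labelled 1000, at 2 bp for CARPO labelled 500 on leaf DNA and at 1 bp for the other 3 lists.

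The strongest gained event lay on chromosome 13 at 3991374 (interval 3991274 to 3991474). Its strength of 2261.7 and −log10 q-value of 312.43 made it the third strongest of the whole NAC33 list labelled 1000. No other list had an event within 1000 bp, and the nearest event labelled 500 of NAC33 was 10441 bp away. It was thus listed for 1 library only.

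The next, on chromosome 2 at 11552451 (interval 11552351 to 11552551, strength 1503.9, rank 4), had a partner only in the other list labelled 1000. CARPO labelled 1000 had an event at the same base, with a strength of 1824 and rank 16. A second gained event lay 106 bp away at 11552345 (strength 610.1). In the lists labelled 500, events lay instead 783 to 785 bp further on, at 11553234 for CARPO on leaf DNA (strength 2023.3, rank 23), at 11553235 for NAC03 (549.3, rank 20) and at 11553236 for CARPO on berry DNA (1269.3, rank 21). The 2 lists labelled 1000 therefore shared one position here and the 3 lists labelled 500 another, and NAC33 labelled 500 had neither.

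The other 3 of the 5 strongest gained events lay at sites of CARPO and NAC03. On chromosome 9 at 17381111 (interval 17381011 to 17381211), a gained event with a strength of 982 coincided with rank 3 of CARPO labelled 1000 (strength 5943, 6 bp away). The same site was rank 6 of CARPO labelled 500 on leaf DNA (4466, 0 bp), rank 13 of NAC03 (855, 0 bp) and rank 5 of CARPO on berry DNA (2709, 2 bp). The nearest NAC33 event labelled 500 was 143630 bp away, so a site among the strongest of CARPO was listed for NAC33 only in the library labelled 1000.

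On chromosome 17 at 6121488 (interval 6121388 to 6121588) a gained event had a strength of 999. NAC03 had its event of rank 6 there, 8 bp away with a strength of 1905. The nearest CARPO partners had ranks of 54 (labelled 1000), 48 (labelled 500, leaf) and 55 (berry). Each CARPO list held a further event close by, of rank 74 at 6121458 for CARPO labelled 1000, of rank 34 at 6121465 for CARPO labelled 500 on leaf DNA and of rank 27 at 6121466 for CARPO on berry DNA. On chromosome 12 at 7213727 (interval 7213627 to 7213827) a gained event had a strength of 1018, and the partners had rank 18 for CARPO labelled 500 on leaf DNA (2 bp), 11 for CARPO labelled 1000 (34 bp), 15 for NAC03 (1 bp) and 11 for CARPO on berry DNA (1 bp). Each of these lists had a further event in the neighbourhood, and NAC33 labelled 1000 did too, at 7213878 with a strength of 297. These 3 sites had no partner in the NAC33 list on berry DNA.

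The 11 gained events with a partner in all 5 lists were led by one on chromosome 6 at 3497087 (interval 3496987 to 3497187). Its strength was 369 in the NAC33 list labelled 1000 (rank 25). It was 410 in NAC33 on berry DNA (rank 17), 351.5 in NAC03 (rank 38), 540.9 in CARPO labelled 500 on leaf DNA (rank 72), 387.3 in CARPO on berry DNA (rank 70) and 245.7 in CARPO labelled 1000 (rank 255). All 5 partners lay within 6 bp, and the nearest NAC33 leaf event labelled 500 was 42572 bp away. Every list except the NAC33 leaf list labelled 500 therefore held this site.

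The next 4 of these 11 were weaker. They lay on chromosome 18 at 31816512 (strength 54.7), chromosome 10 at 2811060 (41), chromosome 17 at 491286 (32) and chromosome 11 at 13538396 (31). The first 3 of them had the same spacing to every partner: 0 bp to CARPO labelled 1000, 2 bp to CARPO labelled 500 on leaf DNA and 1 bp to NAC03 and both berry lists. For the event on chromosome 11 the distances ran from 4 to 37 bp.

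Among the 97 gained events with a NAC33 partner on berry DNA, the strongest was on chromosome 18 at 27811743 (interval 27811643 to 27811843, strength 504.8). Its nearest berry partner lay 16 bp away with a strength of 151 (rank 51), and a stronger berry event lay 17 bp away on the other side, at 27811760 with a strength of 396.6 (rank 19). A CARPO event labelled 500 on leaf DNA lay 60 bp away, and no event of CARPO labelled 1000 or NAC03 lay within 100 bp. The event on chromosome 6 already described was the second. On chromosome 10, gained events at 16223445 (strength 147.5) and 16223446 (118.5) lay 1 bp apart and shared 1 berry partner, at 16223445, which was the event of rank 6 on berry DNA with a strength of 515.9. No CARPO or NAC03 list had an event within 100 bp of it. A further event on chromosome 10 at 16174031 (strength 100.8) had a berry partner 1 bp away (270.9, rank 35) and a CARPO event labelled 1000 49 bp away. These sites recurred with NAC33 on the other DNA source although the leaf list labelled 500, called from 2 libraries, did not hold them.

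The 3 strongest gained events without any partner were the event on chromosome 13 at 3991374, one on chromosome 17 at 196474 (interval 196374 to 196574, strength 683.7) and the event on chromosome 2 at 11552345. The event on chromosome 2 lay 106 bp from an event of CARPO labelled 1000, just beyond the 100 bp limit for a partner. The event on chromosome 17 had a neighbour in its own list 1 bp away, at 196475 with a strength of 588.5, so a single place was listed under both positions. Such splitting within 10 bp was rare: 4 gained events and 0 recurring events lay that close to another event of the list, and the 4 formed the pairs on chromosomes 10 and 17. Within 100 bp of another event of the list lay 13 of the 3810 gained and 51 of the 2251 recurring events.

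Among the 36 gained events in the strongest 100 of the list, the highest count of partners was that of NAC03. NAC03 had a partner at 17 (47.2%), CARPO labelled 500 on leaf DNA at 14 (38.9%), CARPO labelled 1000 at 12 (33.3%), CARPO on berry DNA at 10 (27.8%) and NAC33 on berry DNA at 5 (13.9%). Of the 36, 13 had no partner in any list. The 64 recurring events of that class had shares of 62.5% to 73.4% in all 5 lists, and NAC33 on berry DNA, at 65.6%, was among them. With 36 events these shares are imprecise, and the differences between them were not tested.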

How the data were processed

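The series measured factor-bound DNA in 12 samples by DAP-seq, and 7 event lists were used. The submitters' processing notes name fastp 0.21.0 and Bowtie2 2.0, with no further role. File naming points to GEM as the event caller. The build, the control used in calling and the filters are not given in the sources used here. The deposited lists have no header line and decimal commas. Column 5 is a deposited score that was not used, and column 7 was taken as the deposited event strength, which the authors' caller gave as a score without a stated scale. Columns 8 and 9 were taken, from their values, as the deposited −log10 p-value and q-value. In each list the smallest −log10 q-value was 2 to 2.03. Strength was ranked and compared only within a list, and related between lists only as a correlation across sites.

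The position of an event was its start plus the offset of the last column plus 1, counted from 1. A partner was the nearest event within 100 bp. Strength classes are 5 equal classes by rank, with ties ordered by p-value. Scripts used Python 3.11.15, pandas 2.3.3, numpy 2.4.6 and scipy 1.17.1. The partner search was tested on simulated data. The gained events, the comparisons and the rule for named events were chosen with earlier results of these data known. The rule named the 5 strongest gained events, the 5 with partners in the most lists, the 3 strongest without a partner, the 5 strongest with a NAC33 berry partner, and the 3 nearest on each side of the 100 bp threshold. The event 1 bp from a named one on chromosome 17, the neighbours within 1000 bp and the strongest 100 were described after their values were seen. The planned search for sequence words was not run, because no genome of the files' build was used here.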

Additional observations from a re-analysis of the deposited data

How the results depend on the processing

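Depth is unknown, which limits every statement about a missing partner. The number of gained events was 3695 to 4046 with a rule distance of 250 or 50 bp, 3966 with chr00 included and 3765 after merging within 500 bp. It was 621 when only NAC33 events labelled 1000 with a −log10 q-value of 4 or more were kept, fewer because the threshold is stricter. The other lists were not cut by this threshold. At that threshold the shares of gained events with a partner were 25.6% (CARPO labelled 1000), 26.7% (CARPO labelled 500, leaf), 16.7% (NAC03), 7.09% (NAC33 berry), 13.8% (CARPO berry) and 36.1% (any list). With a partner distance of 25 bp they were 10.4%, 12.4%, 6.27%, 1.94%, 5.64% and 16.7% in the same order. With any overlap of intervals they rose to 16.3% and 19.3% for the CARPO leaf lists and 23.9% for any list. With each partner list cut to its strongest events, as many as the shortest list holds, they were 2.57%, 2.39%, 2.60%, 2.55%, 2.41% and 6.82%, so at equal length the 5 lists had nearly the same share, and the order of the lists given above was that of the full lists. With a rule distance of 50 bp they were 18.9% for CARPO labelled 500 on leaf DNA, 10.01% for NAC03 and 23.9% for any list. The difference of 23.9 percentage points between recurring and gained events in any list kept its sign under all 7 alternatives applied to it, and was 20.0 at 25 bp and 16.1 with partner lists of equal length. The other values stayed inside the intervals of the main ones. No paired analysis was possible because there is a single list for each condition, made from pooled libraries where replicates exist, and this also kept any replicate from being left out.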
